A study of Homo sapiens with 8 samples.

Results

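RNA-seq counts were examined for 10 genes of the PAGE and MAGE cancer-testis families, namely PAGE4, PAGE2, PAGE5, MAGEA3, MAGEA4, MAGEA6, MAGEA11, MAGED1, MAGED2 and CTAG2. They were taken by symbol from the 2 tables of gene counts, where 10 of 10 symbols were found among 58828 genes. The libraries came from 22RV1 and DU145, which are both established human prostate cancer lines. Cells of each line carried an empty lentiviral vector or the same vector with the PAGE4 open reading frame behind a doxycycline-inducible promoter, with an HA tag at the N-terminus. All transduced cells had been selected with puromycin and received doxycycline, and each kind was given PBS or 200 mM H2O2 for 12 h before collection. Vector cells and PAGE4 cells of the 2 lines with PBS or H2O2 thus make 8 conditions with 1 library each, so no condition has a replicate. Differences between groups of libraries were tested over pairs of libraries that share the other factors, and ratios of 2 libraries are given with their counting error only.

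Cancer-testis genes are normally active in germ cells and placenta, are silenced in most adult tissues by DNA methylation of their promoters, and reappear in some tumors. MAGE proteins share a MAGE homology domain through which they bind E3 ubiquitin ligases. The MAGEA genes and CTAG2 are of the germline-restricted kind, whereas MAGED1 and MAGED2 are transcribed in many tissues. PAGE4 is a small, intrinsically disordered protein that is best known from the prostate, where HIPK1 and CLK2 phosphorylate it and it acts on the transcription factor c-Jun.

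All 10 genes lie on the X chromosome (coordinates of GENCODE on GRCh38, the build of the counts). Total counts per library ran from 25482984 to 43310401, with a median of 29843277. A floor of 3 reads was used for bounds against 0 reads, and no ratio was taken where both counts were at or under it. Markers of 22RV1, among them KLK3, followed the labels: 8 of 8 were higher in each 22RV1 library than in any DU145 library, with a summed level, scaled to the total count of the library (CPM), of 866 to 2298 CPM against 32.1 to 37.7 CPM. Of 8 DU145 markers, 5 separated the lines, with a summed level of 568 to 759 CPM in DU145 cells and 198 to 354 CPM in 22RV1 cells, and CD44, LGALS1 and KRT5 did not. With H2O2, 8 of 8 of the 22RV1 markers fell in 22RV1 cells in the edgeR fit of that line, by a median of 1.46 on the log2 scale. Of the 4 DU145 markers tested in that fit, 3 rose, ANXA3 by 1.90, CD44 by 1.01 and CAV1 by 0.86, and LGALS1 fell by 0.47. The part of both marker lists in the results with H2O2 was not tested.

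The first gene checked was PAGE4 (chrX:49829260-49834264, + strand), the transduced gene. In 22RV1 cells it had 1 read in vector cells with PBS and 0 reads in vector cells with H2O2, against 1489 and 1179 reads in PAGE4 cells with PBS and H2O2. In DU145 cells it had 1 read in each vector library, against 1001 reads in PAGE4 cells with PBS and 1431 reads in PAGE4 cells with H2O2. The 4 vector libraries were thus all below the floor and the 4 PAGE4 libraries far above it, as the labels state. In CPM, PAGE4 cells had 38.0 and 46.3 in 22RV1 and 33.8 and 54.2 in DU145, with PBS and H2O2 respectively. With H2O2, the normalized count in 22RV1 PAGE4 cells was at least 536-fold higher than in vector cells, computed against a floor of 3 reads in the vector library. The single reads of the other vector libraries give ratios with wide counting intervals, 1683 in 22RV1 cells with PBS (95% interval 302 to 66502), 1014 in DU145 cells with PBS (182 to 40092) and 1436 in DU145 cells with H2O2 (257 to 56777).

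Endogenous PAGE4 mRNA was therefore not detectable at this depth in either line, with or without H2O2. The exact upper limits of its level in vector cells were 0.129 CPM with PBS and 0.107 CPM with H2O2 in 22RV1, and 0.185 CPM and 0.213 CPM in DU145. No fold change with H2O2 was drawn from vector cells, since both libraries of each line were under the floor. In PAGE4 cells, where the reads can come from the construct, the log2 ratio of the normalized count with H2O2 to that with PBS was 0.16 in 22RV1 (95% counting interval 0.05 to 0.27) and 0.68 in DU145 (0.56 to 0.80). In such bulk RNA, a change in the share of cells that carry or induce the construct and a change in its RNA per cell cannot be told apart. Both pairs of PAGE4 cells moved upward. The edgeR fits also held the vector pairs of 0 or 1 read, so they did not test the pairs of PAGE4 cells alone. Over all pairs, edgeR gave a common log2 change of 0.37 (SE 0.20, adjusted p = 0.229) and a difference between the lines of -0.46 (22RV1 minus DU145, SE 0.26, adjusted p = 0.234). Between the lines themselves PAGE4 differed by -0.26 on the log2 scale (22RV1 minus DU145, SE 0.23, adjusted p = 0.333, edgeR over all 8 libraries, vector cells included).

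The primer pair that the study lists for PAGE4 is shown because it lies in sequence that the gene and the construct share, and it is printed in full with no part singled out.

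PAGE4 forward primer: gctcccggtgaatctcagc
PAGE4 reverse primer: gatcggaggtgttccttctct

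The amplicon, primers included, has 87 bases that lie wholly inside the 306-base coding sequence of both of the 2 coding PAGE4 transcripts, and that coding sequence is what the construct carries. The exons of the gene as annotated span 2241 bases, so that reads per kilobase understate the construct's transcripts, and levels of PAGE4 are given only in CPM.

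PAGE2 and PAGE5, the other PAGE members, were close to absent. PAGE2 (chrX:55089018-55092842, + strand) had 4 reads in DU145 vector cells with H2O2 (0.153 CPM, exact 95% interval 0.0417 to 0.392) and 0 reads in the other 7 libraries, each of which allows at most 0.145 CPM. PAGE5 (chrX:55220346-55224108, + strand) had 1 read in 22RV1 PAGE4 cells with PBS, 1 read in DU145 vector cells with PBS, and 0 in the other 6. Counting intervals of all libraries overlapped for either gene, and neither passed the filter on low counts. The coding sequences of PAGE2 and PAGE5 are identical at 92.7% of aligned bases, and those of PAGE4 and PAGE2 at 65.4%. Of the 100-base words of PAGE2, 19.8% also occur in its neighbor PAGE2B, so single reads of PAGE2 are uncertain. None of the 100-base words of PAGE4 occurs in another gene. The wider PAGE, GAGE and XAGE relatives were as quiet, since 21 of 25 listed genes were found, 13 of these had any read, and their highest count in any library was 15 reads (XAGE5).

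The germline MAGE genes and CTAG2 separated the lines. In the order vector PBS, vector H2O2, PAGE4 PBS and PAGE4 H2O2, MAGEA4 (chrX:151912495-151925171, + strand), whose protein binds the ubiquitin ligase RAD18, had 10292, 10274, 11465 and 8116 reads in 22RV1 cells and 2, 3, 2 and 0 reads in DU145 cells. CTAG2 (chrX:154651972-154653579, − strand), a relative of the tumor antigen NY-ESO-1, had 5001, 4037, 4615 and 3346 reads against 1, 6, 1 and 0. MAGEA3 (chrX:152698767-152702347, + strand), whose protein binds TRIM28, had 4460, 5612, 3852 and 3468 reads against 2, 2, 2 and 0. These 3 genes were abundant in every 22RV1 library and at or near the floor in every DU145 library.

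MAGEA6 (chrX:152766136-152769716, − strand), the close copy of MAGEA3, had 3049, 3818, 3005 and 2562 reads in 22RV1 cells and 3, 0, 2 and 0 in DU145 cells. MAGEA11 (chrX:149688228-149717268, + strand) had only 5, 5, 7 and 6 reads in 22RV1 cells (0.115 to 0.235 CPM) and 0 reads in all 4 DU145 libraries. Over the 4 libraries of a line it was at least 6.04-fold higher in 22RV1 cells, against a floor of 3 reads over the DU145 group.

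The summed reads of a line give the size of these differences. Relative to total counts, MAGEA4 was 4519 times higher in 22RV1 than in DU145 cells (40147 against 7 reads, 95% counting interval 2193 to 11241). The ratio was 2284 for MAGEA3 (17392 against 6 reads, 1049 to 6225), 1959 for MAGEA6 (12434 against 5 reads, 839 to 6036) and 1674 for CTAG2 (16999 against 8 reads, 849.5 to 3879). Counting intervals of the 4 ratios overlap, so their order is not resolved. In DU145 PAGE4 cells with H2O2, the 7 germline members other than PAGE4 had 0 reads in all, where the other DU145 libraries had 9, 15 and 7. The exact upper limit of that sum is 0.140 CPM. For CTAG2 alone, 0 reads against the 6 reads of vector cells with H2O2 give a ratio of at most 0.853 by counting error. In 22RV1 cells the same sum was 527, 691, 585 and 687 CPM.

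In edgeR's quasi-likelihood test over the 4 conditions as blocks, 6 of the 7 members that passed the filter were higher in 22RV1 cells, against 63.2% of all 19784 genes called in either direction. MAGEA4 (adjusted p = 2.37e-07), MAGEA3 (3.20e-07), MAGEA6 (8.93e-07) and CTAG2 (1.06e-06) were among them, and their fitted log2 differences of 10.45 to 11.88 depend on the prior count added to the few DU145 reads. A count for members that passed only through 22RV1 carries no further weight, and 3 of the 10 members, PAGE2, PAGE5 and MAGEA11, did not pass.

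**Figure D1:**
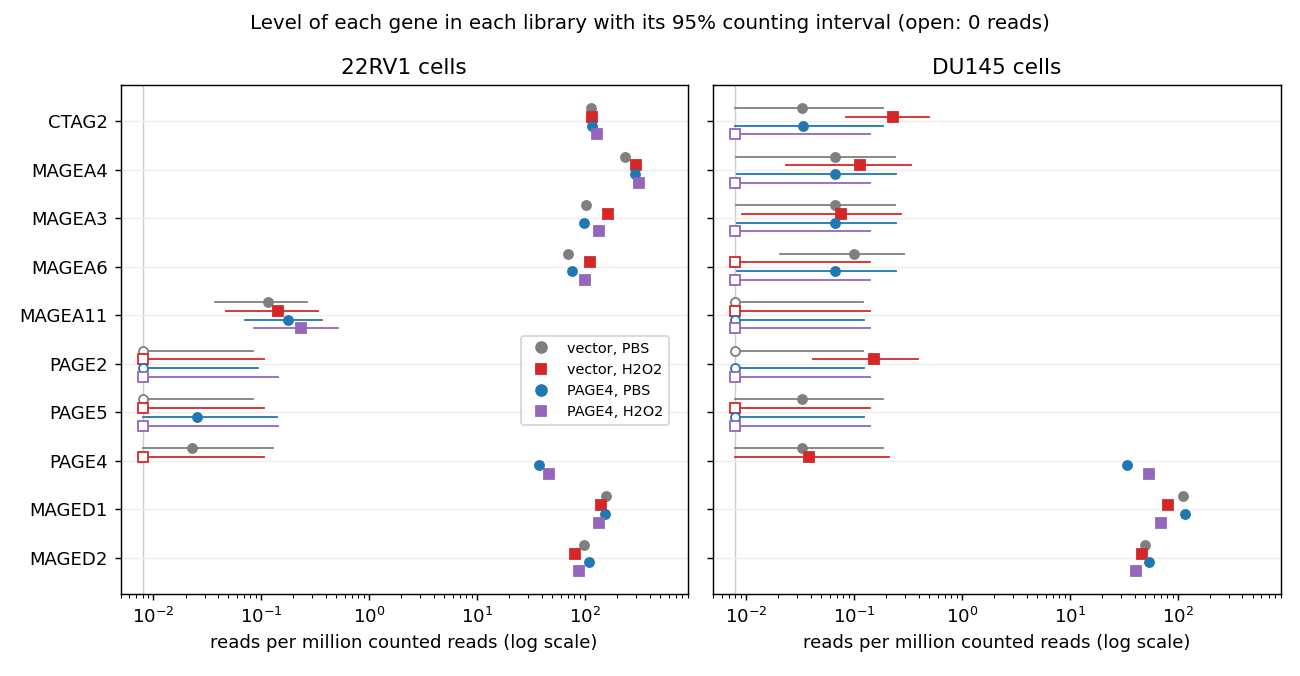
Level of each of the 10 genes in each of the 8 libraries, in CPM on a log axis, with 22RV1 cells on the left and DU145 cells on the right. Points are single libraries, lines are exact 95% counting intervals, and open symbols at the left edge stand for 0 reads. CTAG2, MAGEA4, MAGEA3 and MAGEA6 sit between 70.4 and 318 CPM in 22RV1 cells and at 0.230 CPM or less in DU145 cells, while MAGED1 and MAGED2 stay at 41.0 CPM or more in all 8 libraries.

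Scaled by both annotated exon length and total count (RPKM), the levels of the members could be ranked within 22RV1 cells. CTAG2 was highest with a median of 118 RPKM (116 to 132 over the 4 libraries), followed by MAGEA4 with 87.7 (70.5 to 94.5), MAGEA3 with 67.4 (55.4 to 92.1) and MAGEA6 with 48.4 (38.4 to 60.6). MAGED2 had 32.0 RPKM (27.8 to 37.3) and MAGED1 24.6 RPKM (22.4 to 26.1). The ranges of MAGEA4 and MAGEA3 overlap, as do those of MAGEA3 and MAGEA6, and the other neighbors in this order do not overlap. The length is the union of all annotated exons, 993 bases for CTAG2 and 3370 for MAGEA4. In CPM MAGEA4 was the higher of the 2, at 238 to 318 against 115 to 131, so that their order depends on the length used. In DU145 cells, MAGED2 had a median of 16.4 RPKM (13.9 to 18.6) and MAGED1 16.1 RPKM (11.7 to 19.4), with overlapping ranges.

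MAGEA3 and MAGEA6 stand at the 2 ends of one stretch of 70950 bases on the X chromosome (chrX:152698767-152769716) and face each other. Their coding sequences are identical at 924 of 942 bases (98.1%), with 18 mismatches and no gap. Of their 100-base words, 35.8% for MAGEA3 and 34.1% for MAGEA6 also occur in another gene, mostly in each other, so that the share of each in their common reads is uncertain where counting could split or drop such reads. MAGEA3 took 59.4%, 59.5%, 56.2% and 57.5% of the reads of the pair in the 4 22RV1 libraries, in the order above. CTAG2 shares 24.5% of its words with CTAG1A and CTAG1B, which had 175 and 88 reads in 22RV1 cells in all and 0 in DU145 cells. MAGEA4 shares 2.03%, and MAGEA11, MAGED1 and MAGED2 share none. Since read length is not given in the sources used here, 50-base words were counted too, which gave 55.8% for MAGEA3, 53.7% for MAGEA6, 43.1% for CTAG2, 39.2% for PAGE2, 12.0% for PAGE5, 6.29% for MAGEA4, 1.62% for MAGED2, 1.05% for MAGED1 and 0.197% for MAGEA11.

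The sequences just upstream of the annotated starts are shown because MAGEA3 and MAGEA6 changed together, whereas PAGE2, PAGE5 and PAGE4 gave almost no endogenous reads. They are 120 bases long, 5′ to 3′ on the strand of the gene, from RefSeq on GRCh38.p14, where 9 of the 10 members were matched, and capitals mark the hexamers GGATGT and TGCGCA or their reverse complements. These hexamers were chosen after the sequences had been looked at.

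MAGEA3, chrX:152698674-152698793, + strand: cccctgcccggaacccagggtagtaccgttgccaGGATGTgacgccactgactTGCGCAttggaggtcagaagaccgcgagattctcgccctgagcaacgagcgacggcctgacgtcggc
MAGEA4, first start, chrX:151912354-151912473, + strand: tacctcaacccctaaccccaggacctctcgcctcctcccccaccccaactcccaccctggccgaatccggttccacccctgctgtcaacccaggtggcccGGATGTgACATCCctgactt
PAGE2, chrX:55088898-55089017, + strand: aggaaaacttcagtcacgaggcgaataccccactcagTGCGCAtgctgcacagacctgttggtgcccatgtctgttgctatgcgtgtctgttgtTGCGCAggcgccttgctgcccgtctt
PAGE5, chrX:55220226-55220345, + strand: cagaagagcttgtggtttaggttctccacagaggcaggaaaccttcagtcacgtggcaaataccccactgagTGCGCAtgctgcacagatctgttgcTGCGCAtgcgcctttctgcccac
PAGE4, first start, chrX:49829140-49829259, + strand: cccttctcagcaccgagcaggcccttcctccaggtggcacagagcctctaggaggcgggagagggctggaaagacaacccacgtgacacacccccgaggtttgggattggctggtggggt

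The MAGEA6 promoter (chrX:152769690-152769809, − strand) has the same letters as that of MAGEA3, at 300 of 300 bases around the start. Both have GGATGT at position -86 and TGCGCA at position -67, counted from the start. Within the 250 bases upstream of a start, on both strands, GGATGT was found in 8.43% and TGCGCA in 6.89% of 35116 promoters, and both in 0.421%. The hexamers do not overlap, and TGCGCA is its own reverse complement. For MAGEA4, both hexamers were found at 4 of 5 annotated starts, and the first start has GGATGT on each strand. PAGE2 and PAGE5, which were silent in both lines, have TGCGCA at 2 places each. MAGEA11 has GGATGT at position -13, MAGED1 and MAGED2 each have 1 of the hexamers at their second start, and neither PAGE4 start has any match. CpG dinucleotides numbered 15 in the 250 bases of MAGEA3 and MAGEA6, 18 in those of MAGEA11 and 4 in those of PAGE4, against a median of 11 over all promoters. They numbered 6, 7, 11, 12 and 14 at the 5 MAGEA4 starts, 11 for PAGE2 and 9 for PAGE5. MAGED1 had 6 and 17 at its 2 starts, and MAGED2 had 6 and 8.

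MAGED1 and MAGED2 were read in all 8 libraries. MAGED1 (chrX:51803007-51902354, + strand), which binds the neurotrophin receptor NGFR, had 6797, 4922, 5998 and 3438 reads in 22RV1 cells and 3364, 2131, 3452 and 1861 reads in DU145 cells, in the same order of conditions. MAGED2 (chrX:54807599-54816015, + strand), which is mutated in a transient antenatal form of Bartter syndrome, had 4317, 2809, 4305 and 2261 reads in 22RV1 and 1496, 1228, 1619 and 1081 in DU145. In CPM, both genes were higher in each 22RV1 library than in any DU145 library, with 135 to 157 against 70.5 to 117 for MAGED1 and 81.7 to 110 for MAGED2 against 41.0 to 54.7. edgeR put the line difference at 0.46 on the log2 scale for MAGED1 (22RV1 minus DU145, SE 0.11, adjusted p = 0.00821) and at 0.78 for MAGED2 (SE 0.10, adjusted p = 0.000331). Both stayed past the threshold without any 1 of the 4 conditions, with the highest adjusted p at 0.0390 for MAGED1 and 0.00205 for MAGED2.

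With H2O2, MAGED1 and MAGED2 fell. The normalized count of MAGED1 with H2O2 was 0.847 times that with PBS in 22RV1 vector cells (95% counting interval 0.817 to 0.879) and 0.810 times in 22RV1 PAGE4 cells (0.777 to 0.845). In DU145 it was 0.716 times in vector cells (0.678 to 0.756) and 0.604 times in PAGE4 cells (0.571 to 0.639). It was thus lower in 4 of 4 pairs, and its 2 H2O2 libraries did not overlap the PBS libraries of their line.

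MAGED2 was 0.761 times (0.726 to 0.799) and 0.742 times (0.705 to 0.781) in 22RV1 vector and PAGE4 cells. In DU145 vector cells it was 0.928 times, with an interval of 0.860 to 1.00 that includes no change, and in DU145 PAGE4 cells it was 0.748 times (0.692 to 0.808). It was lower in 4 of 4 pairs, beyond counting error in 3 of them.

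Over the 4 pairs, edgeR gave a log2 change with H2O2 of -0.46 for MAGED1 (SE 0.11, adjusted p = 0.0224) and of -0.36 for MAGED2 (SE 0.09, adjusted p = 0.0294). These 2 were the members called, of 7 tested, where 23.0% of all genes were called. The 2 calls were close to the threshold. Without the DU145 vector pair or the DU145 PAGE4 pair, MAGED1 had an adjusted p of 0.0856 or 0.0835, and MAGED2 lost its call without any 1 of the 4 pairs (adjusted p = 0.0534 to 0.138), both in edgeR.

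Fitted within each line, both genes fell in both. In 22RV1, the edgeR fit of the 4 libraries gave -0.26 for MAGED1 (SE 0.09, adjusted p = 0.0230) and -0.40 for MAGED2 (SE 0.10, adjusted p = 0.000591). In DU145, it gave -0.60 for MAGED1 (SE 0.08, adjusted p = 1.97e-12) and -0.26 for MAGED2 (SE 0.09, adjusted p = 0.0101). These fits keep 1 residual degree of freedom and borrow nearly all of their spread from other genes, and they called 34.3% of genes in 22RV1 and 56.7% in DU145.

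The fall of MAGED1 was smaller in 22RV1 than in DU145 by 0.38 on the log2 scale (SE 0.12, adjusted p = 0.0354, edgeR interaction), where 19.5% of all genes were called. It missed the threshold with DESeq2 size factors (adjusted p = 0.0520), with DESeq2's Wald test (0.0944) and with no filter on low counts (0.151). For MAGED2 the difference was -0.10 (SE 0.14, adjusted p = 0.657). Of 7 members 2 were called. The other, MAGEA6 at 5.02 (SE 1.67, adjusted p = 0.0415), rests on 3, 0, 2 and 0 reads in DU145 cells and gives no usable size.

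**Figure D2:**
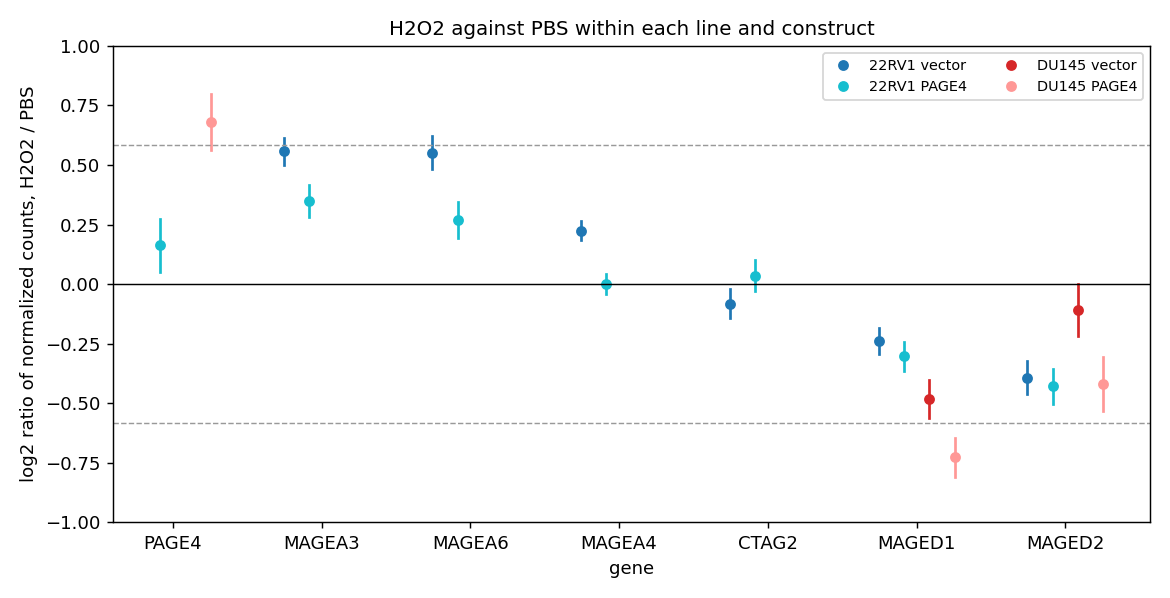
Log2 ratio of the normalized count with H2O2 to that with PBS, for each line and construct, for members with more than 3 reads in both libraries and a mean normalized count of 10 or more. Points are single pairs of libraries, lines are 95% counting intervals, and dashed lines mark a 1.5-fold change. MAGED1 lies below 0 in 4 of 4 pairs and lowest in DU145 PAGE4 cells at -0.73, while MAGEA3 and MAGEA6 lie above 0 in both 22RV1 pairs, at 0.27 to 0.56.

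In 22RV1 cells MAGEA3 and MAGEA6 rose with H2O2. MAGEA3 went from 103 to 163 CPM in vector cells and from 98.2 to 136 CPM in PAGE4 cells. MAGEA6 went from 70.4 to 111 CPM and from 76.6 to 101 CPM. For both genes, the 2 H2O2 libraries lay above the 2 PBS libraries. After normalization, MAGEA3 with H2O2 was 1.47 times its PBS level in vector cells (95% counting interval 1.42 to 1.53) and 1.27 times in PAGE4 cells (1.22 to 1.33), and MAGEA6 was 1.47 times (1.40 to 1.54) and 1.20 times (1.14 to 1.27).

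In the edgeR fit of the 22RV1 libraries, MAGEA3 rose by 0.47 on the log2 scale (SE 0.10, adjusted p = 2.11e-05) and MAGEA6 by 0.42 (SE 0.10, adjusted p = 0.000306). With MAGED1 and MAGED2, 4 of the 6 members tested were called there, beside 34.3% of all genes in that fit. MAGEA4 changed by 0.13 (SE 0.09, adjusted p = 0.287) and CTAG2 by -0.01 (SE 0.10, adjusted p = 0.952) and missed the threshold. MAGEA4 was 1.17 times its PBS level in vector cells (1.14 to 1.20) but 1.00 times in PAGE4 cells (0.972 to 1.03). The fit of all 8 libraries, in which the few DU145 reads enter, did not call MAGEA3 (0.41, SE 0.18, adjusted p = 0.151) or MAGEA6 (0.31, SE 0.26, adjusted p = 0.429).

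MAGEA3 and MAGEA6 are partly counted from shared sequence, so their 2 values are not independent. The stretch between them holds further MAGEA genes and the CSAG genes, of which the 3 coding ones, CSAG1, CSAG2 and CSAG3, are each transcribed from the strand opposite to the MAGEA copy beside them. In 22RV1 cells, MAGEA12 had 1633, 2877, 1717 and 1653 reads and rose by 0.76 (SE 0.11, adjusted p = 4.91e-09, edgeR fit of 22RV1). MAGEA2B had 276, 538, 291 and 508 reads and rose by 1.26 (SE 0.19, adjusted p = 4.95e-09). MAGEA2 had 159, 271, 150 and 187 reads and rose by 0.92 (SE 0.26, adjusted p = 0.00206). All 5 MAGEA genes of the stretch were thus higher with H2O2 in that fit, where 34.3% of all genes were called. Of the 3 coding CSAG genes 0 were called, CSAG1 at 0.04 (SE 0.14), CSAG3 at -0.38 (SE 0.17, adjusted p = 0.0695) and CSAG2 at 0.61 (SE 0.34, adjusted p = 0.161). The estimate of CSAG2 lay above those of MAGEA3 and MAGEA6, with a larger error. A difference between the MAGEA and the CSAG genes was not tested. Of the 50-base words of MAGEA12, 13.7% also occur in other genes, mostly in MAGEA2 and MAGEA2B, so the 5 values are not independent.

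CSAG2 had 140, 69, 68 and 187 reads, so that it went down with H2O2 in vector cells and up in PAGE4 cells. MAGEA1, outside the stretch, had 4400, 4336, 4166 and 2829 reads and changed by 0.09 (SE 0.10, adjusted p = 0.526). The near-identical MAGEA2 and MAGEA2B are uncertain, and MAGEA12 overlaps CSAG4 on the same strand, so that reads from the overlap cannot be assigned to either by strand. CSAG4 had 1 to 19 reads in 22RV1 cells.

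**Figure D3:**
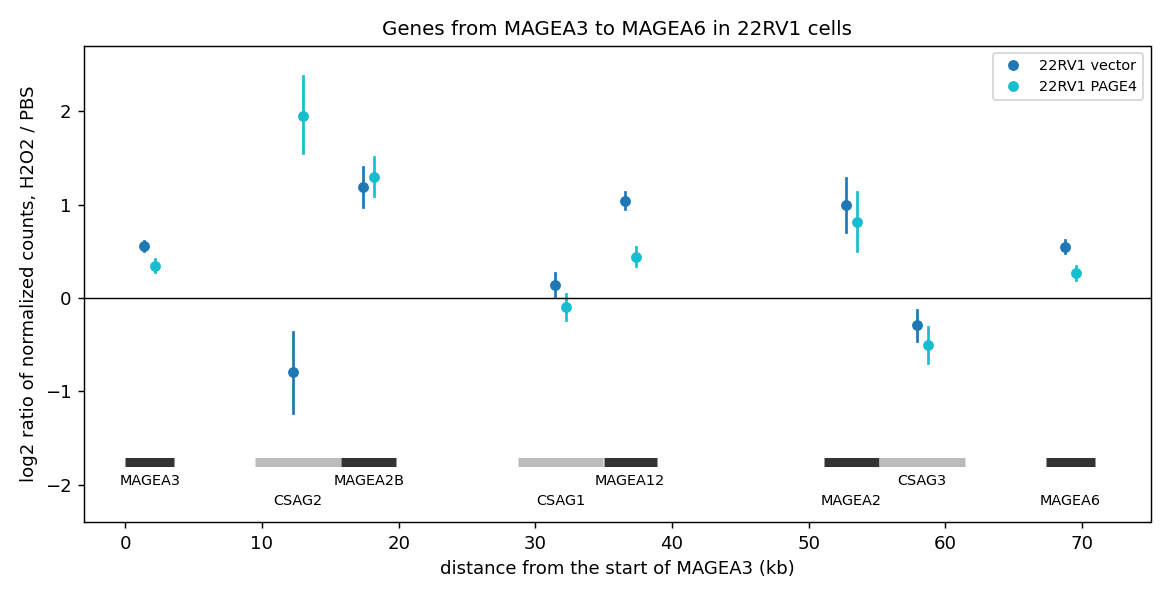
Log2 ratio of the normalized count with H2O2 to that with PBS in 22RV1 cells, for the 8 protein-coding genes of the stretch from MAGEA3 to MAGEA6, against the distance from the start of MAGEA3 in kb. Points are single pairs of libraries with 95% counting intervals, and bars at the bottom show the genes, MAGEA in black and CSAG in grey. The 5 MAGEA genes lie above 0 in both pairs, while CSAG1 and CSAG3 lie near or below 0 and CSAG2 lies on opposite sides.

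Between PAGE4 and vector cells, no member other than PAGE4 was called in edgeR, where few of all genes were called. With 1 library per condition, this does not show that the other members were unchanged. In the edgeR test of PAGE4 against vector cells over 4 pairs, 27 of 19784 genes (0.136%) were called, and PAGE4 was the only one of 7 members tested (fitted log2 change 10.65, adjusted p = 2.47e-09). The others ranged from -0.16 for MAGEA3 (SE 0.12, adjusted p = 0.791) to 0.19 for MAGEA4 (SE 0.12, adjusted p = 0.752), with MAGED1 at -0.06 (SE 0.07) and MAGED2 at 0.06 (SE 0.08). Within 22RV1, where 6.41% of genes were called, and within DU145, where 2.61% were called, 0 of the 6 and 0 of the 2 members tested passed in edgeR. MAGEA4 in 22RV1 had an unadjusted p of 0.0212 (log2 change 0.21, adjusted p = 0.18), 1 of the 8 member tests with an unadjusted p under 0.05. PAGE4 itself was left out of these 2 fits by the filter on low counts. The difference of the effect between the lines was called for 0 of 7 members, where 2.49% of all genes were called, and CTAG2 alone had an unadjusted p under 0.05 (0.0267, adjusted p = 0.274), on 8 DU145 reads.

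Single pairs were wider. MAGEA4 was 1.26 times higher in 22RV1 PAGE4 cells than in vector cells with PBS and 1.08 times with H2O2. MAGEA3 was 0.976 times with PBS and 0.844 times with H2O2. MAGED1 was 0.997 and 0.953 times in 22RV1 and 1.04 and 0.877 times in DU145. MAGED2 was 1.13 and 1.10 times in 22RV1 and 1.10 and 0.884 times in DU145, beyond counting error in 4 of 4 pairs. Counting intervals also excluded no change in 2 of 2 pairs for MAGEA4, CTAG2 and MAGEA6, the last in opposite directions. They did so in 2 of 4 pairs for MAGED1 and in 1 of 2 for MAGEA3. None of these ratios reached 1.5-fold.

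**Figure D4:**
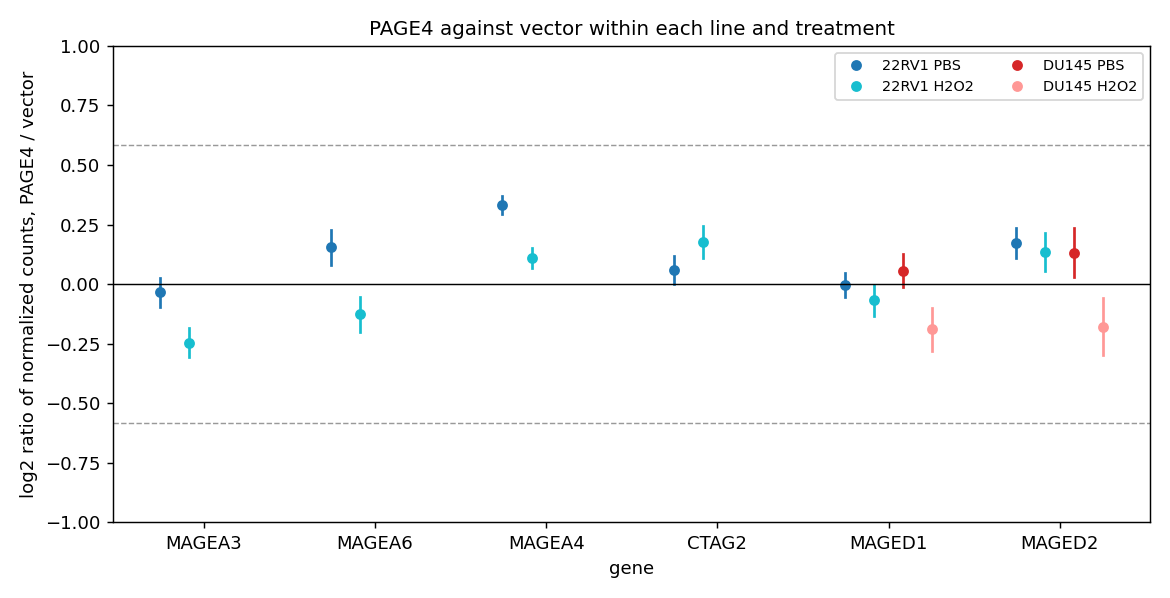
Log2 ratio of the normalized count in PAGE4 cells to that in vector cells, for each line and treatment, for members other than PAGE4 with more than 3 reads in both libraries and a mean normalized count of 10 or more. Points are single pairs of libraries, lines are 95% counting intervals, and dashed lines mark a 1.5-fold change. All points lie between -0.25 and 0.33 and inside the dashed lines.

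The study called single pairs at 1.5-fold. With normalized counts averaging 10 or more over the line required as well, 7 members could be called in 22RV1 and 3 in DU145. Between PAGE4 and vector cells, PAGE4 was the 1 member called in each pair, where 20.0% (22RV1 with PBS), 23.5% (22RV1 with H2O2), 15.6% (DU145 with PBS) and 15.5% (DU145 with H2O2) of all genes were called. Between H2O2 and PBS, the share of all genes called was 37.8% for 22RV1 vector cells, 30.8% for 22RV1 PAGE4 cells, 40.7% for DU145 vector cells and 41.6% for DU145 PAGE4 cells. The 1 member called in 22RV1 vector cells was PAGE4 at 0 against 1 read, which is no measurable change, and 0 were called in 22RV1 PAGE4 and in DU145 vector cells. In DU145 PAGE4 cells 2 were called, PAGE4 higher and MAGED1 lower. Scaled by total counts, MAGEA3 and MAGEA6 also passed 1.5-fold in 22RV1 vector cells, at 0.66 and 0.66 on the log2 scale, and CTAG2 moved there from -0.08 to 0.02.

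Further genes of the families were called between the lines in both directions, where 63.2% of all genes were called. Of 21 further germline-restricted MAGE genes, 5 passed the filter, of which MAGEA1, MAGEA12, MAGEA2 and MAGEA2B were higher in 22RV1 cells and MAGEB2 was lower (edgeR). All 5 had almost no reads in the other line and passed the filter only through the line where they are high, so that this count is a description. With H2O2 1 of the 5, MAGEA2B, was called over all pairs (1.23, SE 0.27, adjusted p = 0.0272), beside 23.0% of all genes. Having almost no reads in DU145 cells, MAGEA2B owes that call to the 22RV1 pairs, and it shows no effect common to the lines. Of 10 further broadly expressed MAGE genes, 8 passed, with 3 higher (MAGEE1, MAGEL2 and NDN) and 2 lower in 22RV1 cells (MAGED4B and NSMCE3), beside 63.2% of all genes called. Of these 5, only NSMCE3 was well above the floor in both lines. With H2O2, where 23.0% of all genes were called, NSMCE3, a subunit of the SMC5/6 complex, was called higher (0.57, SE 0.11, adjusted p = 0.0118) and TRO lower (-1.91, SE 0.51, adjusted p = 0.0350). TRO was weak, with a mean log2 CPM of -0.44 in the edgeR fit of 22RV1. MAGEF1 missed the threshold between the lines (0.13, SE 0.11, adjusted p = 0.320), with 53.4 to 68.6 CPM in 22RV1 and 47.9 to 52.1 CPM in DU145. None of either list was called between PAGE4 and vector cells over all pairs.

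Genes that write, read or erase DNA methylation and genes whose proteins bind PAGE4 or MAGE proteins were listed as well. Of 11 methylation genes, 22RV1 cells had 2 at a higher and 4 at a lower level, beside the 63.2% of all genes called, with TET2 at 1.37 (SE 0.14, adjusted p = 0.000104) and UHRF1, which brings DNMT1 to replicated DNA, at -1.96 (SE 0.21, adjusted p = 0.000112). With H2O2, beside 23.0% of all genes called, 4 were higher and 1 lower over all pairs, with TET2 at 0.70 (SE 0.12, adjusted p = 0.00839) and MBD1 at 0.79 (SE 0.14, adjusted p = 0.00951). In their H2O2 effect, 4 of the 11 were called as different between the lines, beside 19.5% of all genes called. In the edgeR fit of 22RV1, 4 were higher and 4 lower, among the latter UHRF1 at -0.86 (SE 0.10, adjusted p = 4.63e-13) and DNMT1 at -0.49 (SE 0.09, adjusted p = 1.67e-06), and in that of DU145 5 were higher and 1 lower. These 2 fits called 34.3% and 56.7% of all genes. Of 12 partners, 3 were higher in 22RV1 cells and 1 lower, again beside 63.2% of all genes, with PRKAA1 at 0.71 (SE 0.11, adjusted p = 0.000877). JUN, the gene of c-Jun, rose with H2O2 by 1.90 (SE 0.26, adjusted p = 0.00408) and NGFR by 1.91 (SE 0.27, adjusted p = 0.00457). None of the 11 or the 12 was called between PAGE4 and vector cells over all pairs. In the edgeR fit of DU145 alone, where 2.61% of all genes were called, JUN was higher in DU145 PAGE4 cells (0.43, SE 0.09, adjusted p = 9.60e-05). In that of 22RV1 alone, JUN lay on the other side of 0 and was not called (-0.22, SE 0.10, adjusted p = 0.241). Among the listed genes called there with PAGE4, PRKAA1 was higher (0.28, SE 0.09, adjusted p = 0.0388) and MBD2 lower (-0.34, SE 0.11, adjusted p = 0.0281). That fit called 6.41% of all genes.

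The genes most like a member over the 8 libraries were sought by Pearson's correlation of log2 levels, taken as deviations from the mean of each line, as a description over 19784 genes. MAGED1 was followed most closely by CHTF8 (r = 0.996), SLC25A42 (0.995) and RP1-152L7.5 (0.994), and MAGED2 by CISD3 (0.996), CDK4 (0.993) and SLC9A3R2 (0.993). The correlation of MAGED1 with MAGED2 was 0.817, which placed MAGED2 at rank 2814. PAGE4 was followed by ALDH2 (0.987), FBXL15 (0.957) and NDUFC1 (0.952). ALDH2 had 105, 96, 135 and 99 reads in 22RV1 and 1174, 1101, 1561 and 1608 reads in DU145, so it differed far less between constructs than PAGE4 did. All points share the 8 libraries and their scaling.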

How the data were processed

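The deposited values were raw counts per gene in 1 table per cell line. Reads had been aligned by the authors with HISAT2 2.1.0 (genome build GRCh38), and featureCounts 1.6.0 gave the counts. Read length, strand setting, annotation and the treatment of reads with several matches are not given in the sources used here, nor is whether libraries came from separate cultures. The labels name Trizol for extraction and the study's methods a column kit. Date-like names stood for 26 symbols and were kept.

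Of 58828 genes, 19784 passed the filter on low counts and were tested over all libraries, 17877 within 22RV1 and 15924 within DU145. The quasi-likelihood test of edgeR 4.0.16 (R 4.3.3) was run with TMM, filterByExpr by line, pairs of libraries as blocks and Benjamini-Hochberg adjustment over all genes tested, with a limit of 0.05. A called gene is one past that limit. Ratios of 2 libraries used DESeq2 1.42.0 size factors within a line, 0.5 added for log2 values, and exact Clopper-Pearson intervals. Single levels have exact Poisson intervals. All intervals cover counting error only. The 1.5-fold rule follows the study. The tests were tested on simulated data.

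Coordinates and exon lengths are from GENCODE release 44. Named genes were all members, listed PAGE, MAGE and cancer-testis genes whose normalized counts averaged 50 or more in a line, the 2 lowest adjusted p-values per effect of the other lists, and the 3 most similar genes. MAGEL2, TRO, MAGED4B, CTAG1A, CTAG1B, CSAG4 and XAGE5 were named after their values were seen. Members and lists were chosen with earlier results of these data known. Alternatives were DESeq2's size factors and Wald test, no filter, other blocks, each pair left out, other scalings, minimums and folds, and, added later, fits of 1 line. Results for 1 listed gene are not reported here.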

Additional observations from a re-analysis of the deposited data

Results flagged for a closer look

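A difference between the lines in the effect of H2O2 passed edgeR's interaction test for MAGED1, which fell less in 22RV1 than in DU145 cells by 0.38 on the log2 scale, and was lower with H2O2 in 4 of 4 pairs. The same test passed for MAGEA6 at 5.02, which rests on 5 reads in the 4 DU145 libraries.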

How the results depend on the processing

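The line differences of MAGED1 and MAGED2 kept their direction and call under each alternative run, and no called value changed sign. The changes with H2O2 depend on which pairs enter. With 1 pair left out, 1974 to 3880 genes and 0 to 1 members were called over the remaining pairs, and the fits of 1 line, with fewer samples, called 4 members in 22RV1 and 9021 genes in DU145. Genes called between PAGE4 and vector cells numbered 483 with no filter on low counts, 79 with DESeq2's Wald test, 1 with the line as the only block, 1146 in 22RV1 alone (0 members), 416 in DU145 alone (0 members) and 10 to 76 with 1 pair left out. The cause was not tested. For the difference of the H2O2 effect between the lines, 1 member was called with DESeq2 size factors, 0 with no filter and 0 with the Wald test. With no filter, 806 genes were called for the difference of the PAGE4 effect.

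In single pairs without the count minimum, where genes of a few reads enter, members called were 3 and 2 between PAGE4 and vector cells in 22RV1 with PBS and H2O2, 2 and 5 in DU145, 1 between H2O2 and PBS in 22RV1 PAGE4 cells, and 5 and 6 in DU145 vector and PAGE4 cells. Total-count scaling gave 3 in 22RV1 vector cells, and a fold over 2 gave 0 in DU145 PAGE4 cells. The shares of all genes given above for single pairs hold for the main setting only and cannot be set beside these counts. The counts therefore give no result about the members. The labels carry no replicate numbers to use as a block, and pairs here are libraries that share every factor but the one tested. With 1 library per condition, p-values measure only the spread between pairs of different conditions. For genes of a few reads, the depth allows only large differences to be seen.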

Other observations

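Other cancer-testis genes did not all follow the MAGEA genes. Of 46 listed, 22 passed the filter of the fit of all libraries. In edgeR 16 were higher and 4 lower in 22RV1 cells, beside 63.2% of all genes called in either direction. Many of them passed only through the line where they are high, so that this count is a description. SSX3, a germline repressor, had 2597, 998, 2495 and 882 reads in 22RV1 cells (vector PBS, vector H2O2, PAGE4 PBS, PAGE4 H2O2) and 0 in DU145 cells, and it fell by 1.06 on the log2 scale with H2O2 in the fit of 22RV1 (SE 0.12, adjusted p = 5.19e-15). SSX2, with 459, 215, 329 and 151 reads, fell by 0.74 (SE 0.22, adjusted p = 0.00521). Of the 20 listed genes tested in that fit, 4 were lower with H2O2 and 3 higher, beside 34.3% of all genes called. The 3 were TEX14 at 1.71 (SE 0.33), SPAG9 at 0.41 (SE 0.09) and DDX53 at 0.45 (SE 0.18). In the same libraries MAGEA3 and MAGEA6 rose.

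The 4 genes higher in DU145 cells were BRDT, a testis bromodomain protein, CT83, PRAME and TEX15. BRDT had 1554, 1073, 1875 and 1123 reads in DU145 cells against 1, 2, 2 and 1 in 22RV1 cells. PRAME, a substrate receptor of a ubiquitin ligase, was read in both lines, at 36.3 to 43.4 CPM in DU145 and 10.3 to 17.2 CPM in 22RV1. It fell with H2O2 in 22RV1 by 0.74 (SE 0.18, adjusted p = 0.000422), and the difference of that effect between the lines passed edgeR's test (-0.80, SE 0.17, adjusted p = 0.00253).

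MAGEB2, a germline MAGE gene with 0 reads in 22RV1 cells, had 24, 39, 101 and 72 reads in DU145 cells. It was called between PAGE4 and vector cells in the edgeR fit of DU145 (1.46, SE 0.34, adjusted p = 0.00162), which called 2.61% of all genes. Of the 21 further germline MAGE genes, MAGEB2 was the 1 tested in that fit, and of 3 further broadly expressed MAGE genes tested 0 were called. The counting interval of MAGEB2 excluded no change in both pairs (log2 2.07, 1.44 to 2.80 with PBS, and 0.88, 0.31 to 1.49 with H2O2).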
